A study of Mus musculus with 8 samples.

Results

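Liver burns fatty acids by a series of steps that lie in different parts of the cell. Fatty acids are taken up and bound, joined to coenzyme A, carried into mitochondria on carnitine and shortened there by beta-oxidation, while peroxisomes shorten very long and branched chains. Acetyl-CoA that is left over is turned into ketone bodies for other organs, and many genes of these steps are targets of PPAR alpha, a nuclear receptor that is active in the fasted liver. The 37 genes described here are a list of names from these steps, and a gene entered if its FPKM (fragments per kilobase, a level scaled to gene length and to the mapped fragments of each library) was at least 1 in at least 2 of 8 samples. All 37 met this floor, as did 11007 of the 22504 genes listed.

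RNA was sequenced from 8 mice of the 129S4 background that lacked Fah (Fah-/-), the last enzyme of tyrosine breakdown. Such mice stay healthy on NTBC, a drug that acts upstream in tyrosine breakdown. In the C 8w group (n = 3), NTBC was cut to 2.5% for 8 weeks, which is called moderate chronic liver injury (MCLI), and in the C 12w group (n = 2) for 12 weeks. In the C 8w + A 4w group (n = 3), 4 weeks without NTBC followed the 8 weeks of MCLI. This is called severe acute liver injury, and the group is named SALI here. All groups carried the Fah deletion and had MCLI, so none is an uninjured control. The tissue is labelled as liver in C 8w and SALI and as tumor in C 12w, so that in C 12w the length of injury and the tumor cannot be told apart.

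Some facts of the libraries bear on these genes. The codes of C 8w and C 12w samples begin with the same letters and those of SALI samples form another series, so for SALI the code series and the treatment cannot be told apart. The codes of C 8w and C 12w also differ from each other, in a number and in the last letter. What the codes stand for is not said, so codes and groups cannot be told apart in that comparison either. Alb, the albumin gene, was listed at 0 in every C 8w and C 12w sample, as were 5 other genes that were at FPKM 1 or above in every SALI sample, and 5 of the 6 share over 10% of their sequence with another gene. Gapdh, a glycolytic enzyme, was at 0.133 to 0.247 FPKM in C 8w and 0.0980 to 0.140 in C 12w but at 68.2 to 99.9 in SALI. In every SALI comparison, a difference in how the code series were quantified cannot be told apart from the treatment. Genes that share sequence also differed from the others. Of genes with more than 10% of their sequence in another gene, 17.25% were higher by at least 1 (log2) in SALI than in C 8w. Of genes with at most 2% it was 4.71%, and the part of the code series in this was not tested. The tissue was checked on markers, since the extraction text of the labels names retinas. Rcvrn, Rpe65 and Crx of the retina were listed at 0 in all 8 samples and 9 retina markers summed to at most 3.98 FPKM, most of it from Gnat1 with 1.95 to 3.57 FPKM, while 13 hepatocyte markers without Alb summed to 16053 to 20504 FPKM in C 8w, 13697 to 15848 in SALI, and 18023 and 11917 in C 12w. All 13 were at FPKM 1 or above in every sample. The 6 bile duct and progenitor markers summed to 9.61 to 15.4 FPKM in C 8w, 41.0 to 46.5 in SALI and 32.5 to 340.2 in C 12w, and 6 macrophage markers to 106 to 134, 66.4 to 262 and 64.6 to 106. The part of these shifts in cell makeup in the differences between groups was not tested, and in whole tissue fewer hepatocytes and less RNA per hepatocyte cannot be told apart.

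By mean FPKM, C 8w was the highest group for 25 of the 37 genes, SALI for 7 and C 12w for 5. This ranks means only, also of genes whose groups overlap, such as Ppara and Crat. It was not counted over all genes. Against C 8w, 15 of the 37 genes were lower in SALI and 1 was higher, and 17 were lower in C 12w and 1 was higher (limma, adjusted p under 0.05 over all 11007 genes). Over all genes tested, 13.5% were lower and 25.6% higher in SALI, and 6.90% lower and 13.1% higher in C 12w, so that in both comparisons the larger share of all genes was higher while the larger share of these genes was lower. Between SALI and C 12w, 9 of the 37 were higher and 5 lower in SALI, against 18.1% and 16.1% of all genes. This last comparison is also the test of whether the other 2 comparisons, which share the C 8w samples, differ. The median log2 difference of the 37 genes was -0.42 in SALI and -0.51 in C 12w against C 8w, where the median of all genes was 0.13 and 0.12. Between SALI and C 12w it was 0.10, against 0.01 for all genes, and it turned to -0.08 when samples were scaled to the same summed FPKM, which moved the median of all genes to -0.15.

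**Figure D1:**
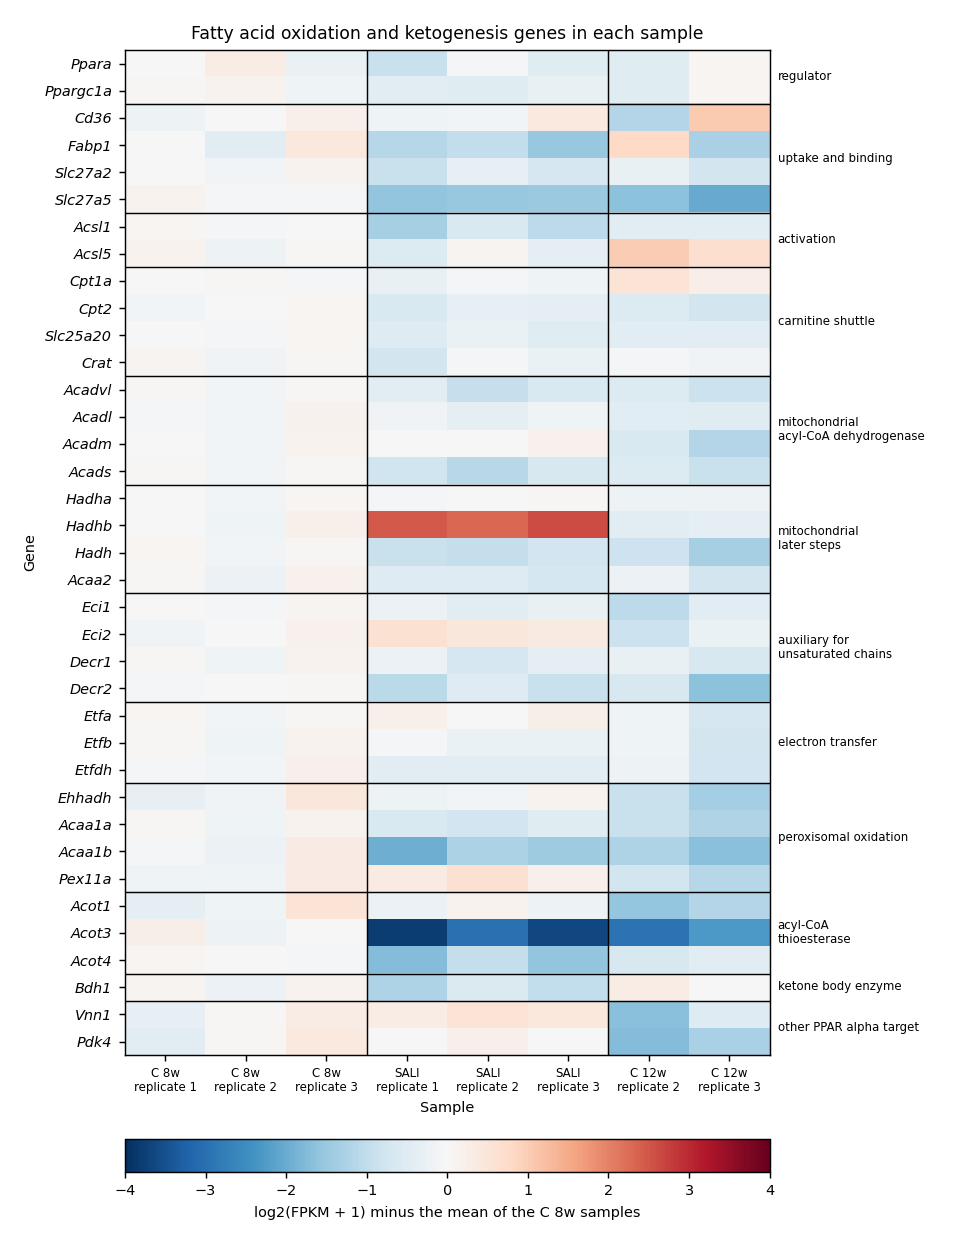
Each of the 37 genes (rows, by role) in each of the 8 samples (columns), as log2(FPKM + 1) minus the mean of the 3 C 8w samples; blue is lower and red higher. Most rows are pale to blue outside C 8w, Hadhb is red in the 3 SALI samples, and Acot1, Ehhadh, Pex11a, Vnn1 and Pdk4 are blue in the 2 C 12w samples only.

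Scaling moved the split of all genes more than that of these genes. Of all calls against C 8w, 65.4% were higher in SALI and 65.4% in C 12w, and after median-ratio scaling, which set the median of all genes to 0.01 in both, 49.9% and 48.4%. With that scaling 20 and 21 of the 37 genes were lower, against 19.8% and 10.6% of all genes, and the medians of the 37 were -0.57 and -0.65. Scaling to the same summed FPKM gave 55.5% and 73.5% of all calls as higher against C 8w and moved the share between SALI and C 12w from 52.9% to 36.9%, while 17 and 14 of the 37 were lower against C 8w, where 14.2% and 4.92% of all genes were. Single samples moved the counts as well. Without C 8w replicate 1, 2 or 3, 10, 9 and 7 of the 37 were lower in C 12w relative to C 8w. The number over all genes fell as well, from 760 to 343, 399 and 314. Without C 8w replicate 1, 9 of the 37 were lower in SALI than in C 8w, against 8.73% of all genes. Without SALI replicate 3, 3 of the 37 were lower in SALI than in C 12w, against 11.6% of all genes. C 8w replicate 3 had the highest FPKM of its group for 26 of the 37 genes. Leaving out each of the 8 samples in turn, 9 genes were lower in SALI than in C 8w every time (Acaa1a, Acaa1b, Acads, Acot3, Acot4, Acsl1, Bdh1, Hadh and Slc27a5), and 7 were lower in C 12w relative to C 8w every time (Acaa1a, Acaa1b, Acot1, Acot3, Hadh, Pdk4 and Slc27a5). Hadhb was higher in SALI than in C 8w every time. Between SALI and C 12w, 7 were higher in SALI every time (Acadm, Acot1, Eci2, Hadhb, Pdk4, Pex11a and Vnn1) and 3 lower (Acsl5, Bdh1 and Cpt1a). For the other calls the number of these 8 fits that kept the call stands beside the gene. The share of all genes that kept their call every time was not counted.

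The 37 genes together summed to 8046, 7138 and 9633 FPKM in the C 8w samples, 5312, 5618 and 5419 in SALI, and 7640 and 4244 in C 12w. Every SALI sample was thus below every C 8w sample, and the C 12w samples lay apart. One gene, Fabp1, made up much of this. Without it the sums were 5955, 5565 and 6810 FPKM in C 8w, 4353, 4559 and 4688 in SALI, and 3973 and 3396 in C 12w, and all 3 groups were separate. As a share of the summed FPKM of all genes, the sums without Fabp1 were 1.57% to 1.84% in C 8w, 1.09% to 1.20% in SALI, and 1.09% and 1.05% in C 12w, so that on this scale SALI and C 12w overlapped. Fabp1 was the highest of the 37 in every sample. It was followed in C 8w by Acaa1b with 647 ± 135 FPKM (SD, n = 3), Ehhadh with 590.1 ± 177 and Slc27a5 with 523 ± 44.6, and the samples of these 3 overlap. In C 12w the next were Acaa2 with 318 ± 78.6 FPKM (SD, n = 2), Etfb with 313 ± 87.1 and Ehhadh with 266 ± 60.4, which also overlap. Ppargc1a was the lowest in every sample but SALI replicates 1 and 3, where Acot3 was.

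**Figure D2:**
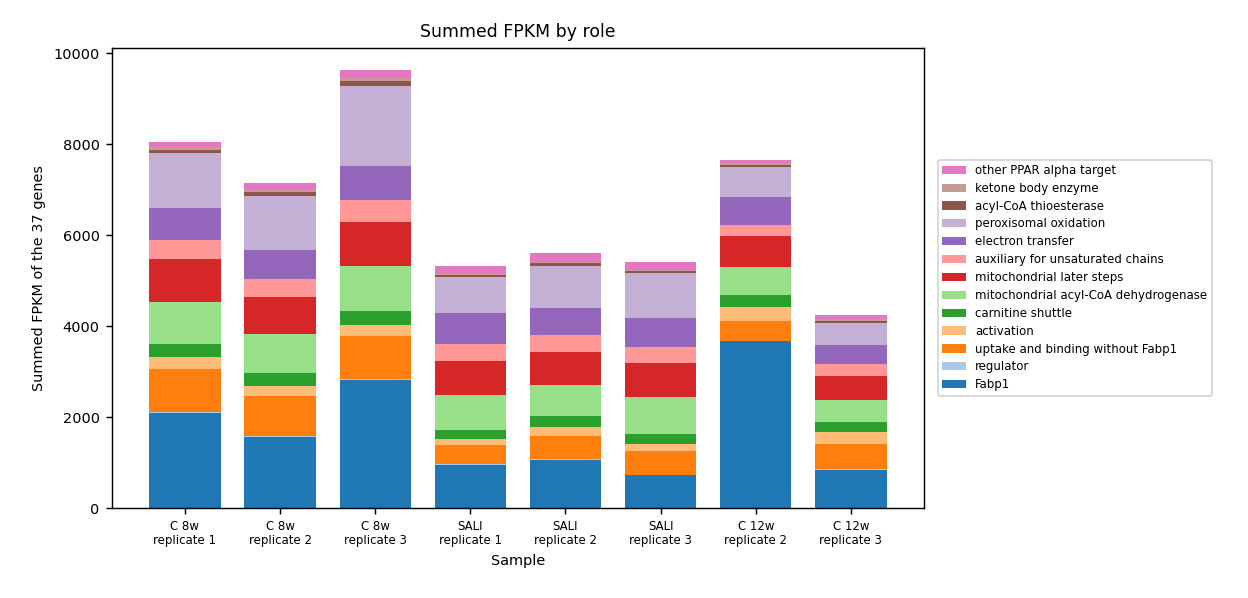
Summed FPKM of the 37 genes in each sample (bars from 0), stacked by role with Fabp1 apart. The C 8w bars reach 7138 to 9633, the SALI bars 5312 to 5618, and the C 12w bars 7640 and 4244, of which Fabp1 is 3667 and 848.

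The regulators did not pass the test in any comparison in the fit of all samples, and 1 of their unadjusted p-values, that of Ppargc1a between SALI and C 8w, was under 0.05 (0.033, limma). Ppara, the receptor itself, was at 10.9 to 16.6 FPKM in C 8w, 6.74 to 12.6 in SALI, and 9.29 and 14.2 in C 12w, so the groups overlapped. Ppargc1a, a coactivator of mitochondrial genes, was at 2.07 to 2.77 FPKM in C 8w, 1.44 to 1.78 in SALI, and 1.47 and 2.67 in C 12w. Its SALI samples lay below all C 8w samples, with a log2 difference of -0.41 ± 0.16 (SE) and an adjusted p of 0.074 (limma). At these low levels log2(FPKM + 1) understates a change.

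Among uptake and binding proteins, the liver transporter was lower in both other groups. Slc27a5, which carries and activates fatty acids and bile acids at the hepatocyte surface, was at 574, 494 and 499.9 FPKM in C 8w, 173, 182 and 184 in SALI, and 168 and 129 in C 12w. Both groups were well below C 8w, by -1.53 ± 0.14 in SALI and -1.82 ± 0.16 in C 12w (log2 difference ± SE, limma, adjusted p = 0.00010 and 0.00062), and the difference of 0.28 ± 0.16 between SALI and C 12w did not pass (adjusted p = 0.21). Slc27a2, a transporter that also activates very long chains, was at 256 to 303 FPKM in C 8w, 148 to 220 in SALI, and 226 and 168 in C 12w, and was lower in SALI than in C 8w (-0.63 ± 0.19, adjusted p = 0.027, kept in 3 of 8 fits). Fabp1, the fatty acid binding protein of the liver cytosol, was at 1573 to 2823 FPKM in C 8w and 731 to 1059 in SALI. These groups did not overlap, but with the spread of all groups the difference of -1.21 ± 0.49 did not pass (adjusted p = 0.080). It passed with these groups fitted alone (adjusted p = 0.0035) and without C 12w replicate 2 or 3 (adjusted p = 0.0035 and 0.0036). The C 12w samples were at 3667, above all others, and at 848, within the range of SALI. Without replicate 2, Fabp1 in C 12w differed from C 8w by -1.31 (adjusted p = 0.018), and without replicate 3 by 0.80 (adjusted p = 0.14). Cd36, a fatty acid translocase at the cell surface, was at 104 to 136 FPKM in C 8w, 106 to 157 in SALI, and 51.8 and 247 in C 12w. Cd36, Fabp1 and Vnn1 were the members whose C 12w samples lay at least 1 apart on the log2 scale, as did 6.95% of all genes, and Cd36 and Fabp1 ran in opposite directions in them. In SALI 4.20% of all genes and in C 8w 0.963% had samples that far apart. The fit pools the spread of all groups, so the standard errors of C 12w rest in part on the other groups. Without C 12w replicate 2, Cd36 was higher in C 12w relative to C 8w (1.05, adjusted p = 0.015) and lower in SALI than in C 12w (-1.01, adjusted p = 0.013), in both cases against the sign of the fit of all samples (-0.07 and 0.10). Without C 12w replicate 3 the values were -1.19 and 1.22, which passed the other way (adjusted p = 0.020 and 0.0085).

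The activating enzymes join long-chain fatty acids to coenzyme A, and their difference from each other was not tested. Acsl1, the main liver form, was at 169, 149 and 158 FPKM in C 8w, 62.9, 103 and 76.0 in SALI, and 116 and 117 in C 12w. It was lower in SALI than in C 8w (-0.99 ± 0.18, adjusted p = 0.0031, limma), and the C 12w samples lay between the groups. Acsl5, an isoenzyme of the same family, was at 104, 81.0 and 97.8 FPKM in C 8w, 63.2, 101 and 72.5 in SALI, and 189 and 151 in C 12w. Both C 12w samples were above all others. Acsl5 was the only one of the 37 that was higher in C 12w relative to C 8w (0.84 ± 0.22, adjusted p = 0.031), a call kept in 3 of 8 fits and lost with median-ratio scaling, and it was lower in SALI than in C 12w (-1.12 ± 0.22, adjusted p = 0.0055).

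In the carnitine shuttle, Cpt2 and Slc25a20 were lower in both groups than in C 8w. Cpt1a, which forms acylcarnitine at the outer membrane and sets the rate of entry, was at 62.5 to 66.9 FPKM in C 8w, 53.3 to 61.2 in SALI, and 95.5 and 79.2 in C 12w. It was lower in SALI than in C 12w (-0.59 ± 0.13, adjusted p = 0.0097, limma) in all 8 fits that left out a sample, while the difference of 0.41 ± 0.13 between C 12w and C 8w did not pass (adjusted p = 0.061). Cpt2, which takes the acyl group off carnitine inside the mitochondrion, was at 122, 131 and 139 FPKM in C 8w, 85.3, 104 and 98.8 in SALI, and 89.4 and 78.1 in C 12w. Slc25a20, the carrier that moves acylcarnitine across the inner membrane, was at 77.0, 74.8 and 83.0 FPKM in C 8w, 53.9, 64.2 and 55.9 in SALI, and 57.2 in both C 12w samples. For both genes all C 8w samples were above all others. Cpt2 was lower by -0.44 ± 0.13 in SALI (adjusted p = 0.025, kept in 3 of 8 fits) and by -0.64 ± 0.14 in C 12w (adjusted p = 0.019, 5 of 8). Slc25a20 was lower by -0.43 ± 0.11 (adjusted p = 0.017, 4 of 8) and -0.45 ± 0.12 (adjusted p = 0.040, 2 of 8). Crat, which makes short acylcarnitines, did not pass in any comparison, with 10.3 to 12.3 FPKM in C 8w, 6.48 to 10.7 in SALI, and 10.8 and 10.3 in C 12w.

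Acyl-CoA dehydrogenases take the first step of each round of beta-oxidation, each on its own range of chain lengths. Acadvl, for very long chains, was at 287, 261 and 288 FPKM in C 8w, 202, 147 and 183 in SALI, and 192 and 152 in C 12w. Acads, for short chains, was at 124, 113 and 125 FPKM in C 8w, 68.7, 55.6 and 77.0 in SALI, and 81.6 and 64.1 in C 12w. Both were lower in both groups than in C 8w, without overlap. The log2 differences of Acadvl were -0.66 ± 0.16 in SALI and -0.70 ± 0.18 in C 12w (limma, adjusted p = 0.013 and 0.030, kept in 7 and 3 of 8 fits), and those of Acads were -0.85 ± 0.15 and -0.73 ± 0.17 (adjusted p = 0.0035 and 0.023, kept in 8 and 4 of 8). Acadvl overlaps the gene Dvl2, and 24.0% of the 50-base windows of its longest coding transcript are shared with it. Shares of windows of single genes are given for this transcript throughout. Acadm, for medium chains, followed another course, with 374, 348 and 415 FPKM in C 8w, 371, 371 and 429 in SALI, and 245 and 166 in C 12w. The first 2 groups overlapped and both lay above C 12w, which was lower than C 8w by -0.90 ± 0.20 (adjusted p = 0.017, kept in 6 of 8 fits) and lower than SALI, where the difference was 0.95 ± 0.20 (adjusted p = 0.0069). Acadl, for long chains, was at 133 to 161 FPKM in C 8w, 110 to 131 in SALI, and 108 and 103 in C 12w, and its difference of -0.45 ± 0.14 in C 12w against C 8w did not pass (adjusted p = 0.061).

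Of the later mitochondrial steps, Hadh was lower in both groups and Hadhb higher in SALI than in C 8w. Hadh, which oxidises short and medium hydroxyacyl-CoA, was at 359, 313 and 349 FPKM in C 8w, 184, 177 and 198 in SALI, and 190 and 136 in C 12w. It was lower by -0.86 ± 0.15 in SALI and by -1.07 ± 0.17 in C 12w (limma, adjusted p = 0.0032 and 0.0054), with every C 8w sample above every other sample. Acaa2, the thiolase that ends each round, was at 372 to 493 FPKM in C 8w, 267 to 307 in SALI, and 373 and 262 in C 12w, and was lower in SALI than in C 8w (-0.57 ± 0.18, adjusted p = 0.035, kept in 3 of 8 fits). The trifunctional protein of the inner membrane is built from Hadha and Hadhb, whose genes lie head to head with 85 bases between them (Hadha at chr5:30118304-30155162, minus strand, and Hadhb at chr5:30155248-30184593, plus strand, GRCm38, GENCODE M21). Hadha was at 96.7 to 109 FPKM in C 8w, 97.8 to 106 in SALI, and 90.0 and 89.9 in C 12w, and passed in no comparison. Hadhb was at 27.1, 24.3 and 31.6 FPKM in C 8w, 154, 138 and 171 in SALI, and 20.0 and 20.9 in C 12w. It was the only one of the 37 higher in SALI than in C 8w, by 2.44 ± 0.13 (adjusted p = 3.0e-06), and it was higher than in C 12w by 2.85 ± 0.15 (adjusted p = 2.6e-06). Per length, the ratio of Hadhb to Hadha was 1.36 to 1.62 in SALI, against 0.252 to 0.289 in C 8w and 0.223 and 0.232 in C 12w.

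Hadhb has a near-identical copy, which is why its sequence is shown. The coding part of its first GENCODE transcript, 1425 bases, differs at 3 bases from the processed pseudogene Gm13910 (chr2:108948806-108950233, plus strand), an identity of 99.8%, and 61.5% of the 50-base windows of the longest coding transcript of Hadhb occur in Gm13910. The paired stretches, from GENCODE M21, run 5′ to 3′ over 90 bases from base 156 of the coding part, and the capital marks the only base that differs in them.
Hadhb: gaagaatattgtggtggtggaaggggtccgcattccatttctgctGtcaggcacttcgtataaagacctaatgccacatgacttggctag
Gm13910: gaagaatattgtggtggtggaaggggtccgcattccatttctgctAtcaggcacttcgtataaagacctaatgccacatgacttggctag
Gm13910 was not analysed here, and since the code series cannot be told apart from the treatment for SALI, the part of shared reads in the Hadhb difference was not tested.

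The auxiliary enzymes, which bring double bonds into a form that beta-oxidation can use, mostly had lower means in C 12w. Decr2, the peroxisomal dienoyl-CoA reductase, was at 100.3, 102 and 108 FPKM in C 8w, 48.1, 71.4 and 54.8 in SALI, and 65.7 and 32.6 in C 12w. It was lower by -0.84 ± 0.25 in SALI and by -1.14 ± 0.28 in C 12w (limma, adjusted p = 0.027 and 0.025, kept in 3 and 4 of 8 fits). Without C 12w replicate 3 the difference in C 12w was -0.65. Eci1, the mitochondrial enoyl-CoA isomerase, was at 181, 174 and 201 FPKM in C 8w, 157, 139 and 149 in SALI, and 89.7 and 133 in C 12w, and was lower in C 12w relative to C 8w (-0.75 ± 0.18, adjusted p = 0.025, kept in 5 of 8 fits, -0.47 without C 12w replicate 2). Eci2, the isomerase found also in peroxisomes, was at 74.5, 81.4 and 91.9 FPKM in C 8w, 126, 113 and 106 in SALI, and 45.1 and 68.7 in C 12w. The SALI samples were the highest, and they differed from C 12w (1.03 ± 0.19, adjusted p = 0.0046) but not from C 8w at this threshold (0.47 ± 0.17, adjusted p = 0.059). Decr1, the mitochondrial reductase, was at 55.0 to 69.6 FPKM in C 8w, 38.6 to 52.9 in SALI, and 50.3 and 39.5 in C 12w and passed in no comparison.

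The genes of electron transfer from the dehydrogenases to the respiratory chain did not pass against C 8w in the fit of all samples. Etfa and Etfb, the subunits of the electron transfer flavoprotein, were at 159 to 179 and 374 to 462 FPKM in C 8w, 172 to 201 and 349 to 403 in SALI, and, in C 12w replicates 2 and 3, 153 and 108 for Etfa and 375 and 251 for Etfb. Etfa was higher in SALI than in C 12w (0.56 ± 0.18, adjusted p = 0.039, limma), a call kept in 2 of 8 fits, with a difference of 0.31 without C 12w replicate 3. Etfb shares 67.3% of its windows with another gene. Etfdh, which passes the electrons to ubiquinone, was at 94.4 to 117 FPKM in C 8w, 75.9 to 76.6 in SALI, and 88.4 and 59.4 in C 12w. Its SALI samples lay below all C 8w samples, with a difference of -0.42 ± 0.16 (adjusted p = 0.075) that passed in 5 of 15 alternatives, among them both scalings and the fit of these groups alone (adjusted p = 0.018). In C 12w against C 8w, Etfa, Etfb and Etfdh differed by -0.41, -0.46 and -0.49 (limma, adjusted p = 0.13, 0.14 and 0.089). Without C 12w replicate 2 the differences were -0.66, -0.74 and -0.77, and without C 12w replicate 3 -0.16, -0.17 and -0.21. Each of these leave-out values rests on 1 C 12w sample.

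The 4 members listed under peroxisomal oxidation were all lower in C 12w relative to C 8w, and the thiolases were also lower in SALI. Acaa1b, a peroxisomal thiolase, was at 603, 539 and 799 FPKM in C 8w, 163, 263 and 239 in SALI, and 273 and 201 in C 12w. Acaa1a, its paralogue, was at 92.3, 79.7 and 99.5 FPKM in C 8w, 59.3, 52.6 and 64.3 in SALI, and 48.6 and 38.8 in C 12w. Neither gene overlapped with C 8w in any group. Acaa1b was lower by -1.55 ± 0.24 in SALI and -1.44 ± 0.26 in C 12w (limma, adjusted p = 0.0014 and 0.0090), and Acaa1a by -0.61 ± 0.14 and -1.04 ± 0.16 (adjusted p = 0.010 and 0.0045). The paralogues share reads, since 46.2% of the windows of Acaa1b and 35.1% of those of Acaa1a occur in other genes, so the split between them is uncertain. Ehhadh, the bifunctional enzyme that takes the middle steps, was at 456, 523 and 791 FPKM in C 8w, 495, 534 and 639 in SALI, and 308 and 223 in C 12w. Pex11a, which helps peroxisomes to divide, was at 43.5, 44.3 and 62.9 FPKM in C 8w, 63.0, 75.3 and 57.4 in SALI, and 29.2 and 22.0 in C 12w. For both genes the C 12w samples were below all others, and the other groups overlapped. Ehhadh was lower in C 12w relative to C 8w by -1.13 ± 0.27 (adjusted p = 0.023, kept in 5 of 8 fits) and higher in SALI than in C 12w by 1.07 ± 0.27 (adjusted p = 0.015, kept in 6 of 8). Pex11a differed by -0.94 ± 0.21 (adjusted p = 0.018, kept in 6 of 8) and 1.32 ± 0.21 (adjusted p = 0.0020).

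The acyl-CoA thioesterases, which release free fatty acid from coenzyme A, lie close together on chromosome 12, and the differences between them were not tested. Acot1, the cytosolic form, was at 37.6, 44.0 and 73.7 FPKM in C 8w, 42.3, 54.6 and 43.3 in SALI, and 16.2 and 21.5 in C 12w. Its C 12w samples were below all others, by -1.36 ± 0.27 against C 8w (limma, adjusted p = 0.013), and SALI was higher than C 12w by 1.27 ± 0.27 (adjusted p = 0.0083). Acot3, a peroxisomal form, was at 29.4, 21.2 and 24.3 FPKM in C 8w, 0.838, 2.28 and 1.06 in SALI, and 2.32 and 4.25 in C 12w. It had the largest fall of the 37 in both comparisons with C 8w, by -3.48 ± 0.25 in SALI, which is 11.1-fold on the scale of FPKM + 1, and by -2.62 ± 0.28 in C 12w, which is 6.17-fold (adjusted p = 2.2e-05 and 0.0011). It was also lower in SALI than in C 12w (-0.85 ± 0.28, adjusted p = 0.048), a call kept in 2 of 8 fits, with a difference of -0.52 without C 12w replicate 3. Acot4, a peroxisomal form for dicarboxylic acids, was at 17.3, 16.3 and 15.3 FPKM in C 8w, 4.16, 7.90 and 4.79 in SALI, and 10.1 and 11.6 in C 12w. All groups were separate, in the order C 8w, C 12w and SALI, and SALI was lower than C 8w (-1.43 ± 0.19, adjusted p = 0.00077) and than C 12w (-0.88 ± 0.22, adjusted p = 0.015, kept in 6 of 8 fits). Of their windows, 33.2% in Acot1, 21.7% in Acot3 and 14.4% in Acot4 occur in other genes.

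**Figure D3:**
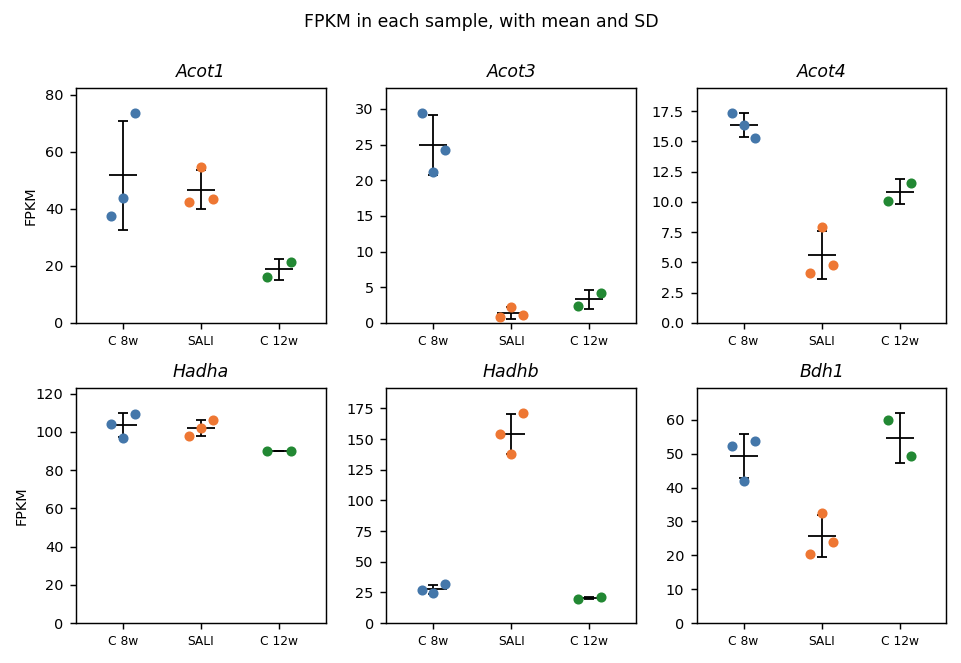
FPKM of Acot1, Acot3, Acot4, Hadha, Hadhb and Bdh1 in each sample (points), with the mean and SD of each group (bars, n = 3, 3 and 2). Acot1 is low in C 12w only (16.2 and 21.5), Acot3 in both other groups, Bdh1 in SALI only, and Hadhb is high in SALI (138 to 171) while Hadha stays between 89.9 and 109 in all samples.

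Ketone bodies were represented by Bdh1, which interconverts acetoacetate and hydroxybutyrate. It was at 52.4, 41.9 and 53.8 FPKM in C 8w, 20.4, 32.6 and 24.0 in SALI, and 59.8 and 49.4 in C 12w. Every SALI sample was below every other sample, by -0.93 ± 0.19 against C 8w and -1.08 ± 0.21 against C 12w (limma, adjusted p = 0.0052 and 0.0050), and both calls were kept in 8 of 8 fits. Bdh1 and Acot4 were the only ones of the 37 that were lower in SALI than in each of the other groups while C 12w against C 8w did not pass. There Bdh1 differed by 0.15 ± 0.21 and Acot4 by -0.55 ± 0.22 (limma, adjusted p = 0.64 and 0.10), and the Acot4 difference passed in 3 of 18 alternatives.

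The remaining members are targets of PPAR alpha outside the oxidation steps. Pdk4, the kinase that shuts off pyruvate oxidation when fat is burned, was at 50.6, 70.4 and 90.4 FPKM in C 8w, 67.4, 79.9 and 67.1 in SALI, and 19.9 and 27.4 in C 12w. Vnn1, a pantetheinase that frees the precursor of coenzyme A, was at 63.6, 83.2 and 98.9 FPKM in C 8w, 100.3, 119 and 109 in SALI, and 24.6 and 56.2 in C 12w. The C 12w samples of both genes were below all others. Pdk4 was lower in C 12w relative to C 8w by -1.51 ± 0.24 and higher in SALI than in C 12w by 1.57 ± 0.24 (limma, adjusted p = 0.0053 and 0.0018). Vnn1 differed by -1.09 ± 0.32 (adjusted p = 0.045, kept in 1 of 8 fits, -0.51 without C 12w replicate 2) and by 1.53 ± 0.32 (adjusted p = 0.0071, kept in 8 of 8, 0.95 without C 12w replicate 2).

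Across the 3 comparisons the 37 genes fell into 11 patterns of calls, and the most frequent are given here. Of the 37, 9 were lower in both groups than in C 8w with no call between the groups: Slc27a5, Cpt2, Slc25a20, Acadvl, Acads, Hadh, Decr2, Acaa1a and Acaa1b. This is 24.3% of the 37, against 2.15% of all genes, and the comparisons with C 8w share its samples. These 9 span uptake, shuttle, mitochondrial and peroxisomal steps. When each sample was left out in turn, only Slc27a5, Hadh, Acaa1a and Acaa1b among them kept both calls every time. A further 6 were lower in C 12w relative to C 8w and higher in SALI than in C 12w, with no call between SALI and C 8w: Acadm, Ehhadh, Pex11a, Acot1, Vnn1 and Pdk4. This is 16.2% of the 37, against 2.38% of all genes, and both calls share the C 12w samples. Only Acot1 and Pdk4 among them kept both calls every time a sample was left out. The log2 differences of these 6 between SALI and C 8w were -0.09 to 0.44, with standard errors of 0.18 to 0.28. The 10 genes Ppara, Ppargc1a, Cd36, Fabp1, Crat, Acadl, Hadha, Decr1, Etfb and Etfdh passed in no comparison in the fit of all samples. This is 27% of the 37, against 44.9% of all genes. Between SALI and C 8w, Decr1 passed in 5 of 16 alternatives, Ppargc1a in 4 of 16, Fabp1 in 3 of 16 and Crat in 2 of 15. In C 12w against C 8w, Acadl passed in 2 of 19. The spread of these 10 differed, since Cd36 and Fabp1 had standard errors of 0.48 to 0.55, against 0.11 to 0.12 for Hadha.

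**Figure D4:**
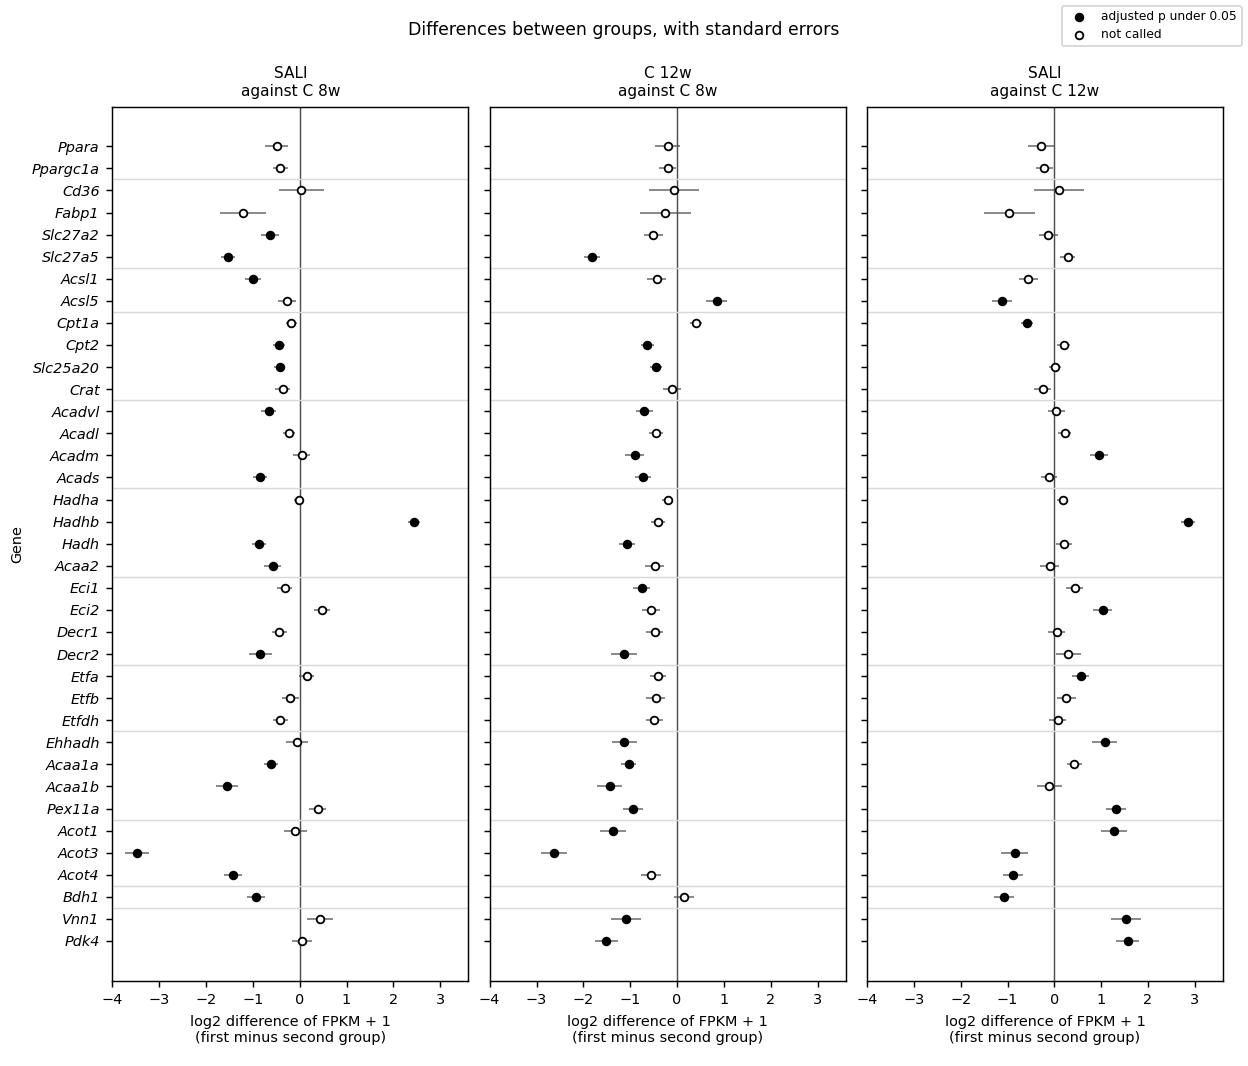
Log2 difference of FPKM + 1 (points, with standard errors) of each of the 37 genes in the 3 comparisons; filled points passed limma at an adjusted p under 0.05. In the left and middle panels nearly all filled points lie below 0 except Hadhb (2.44) and Acsl5 (0.84), and in the right panel 9 lie above and 5 below.

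**Figure D5:**
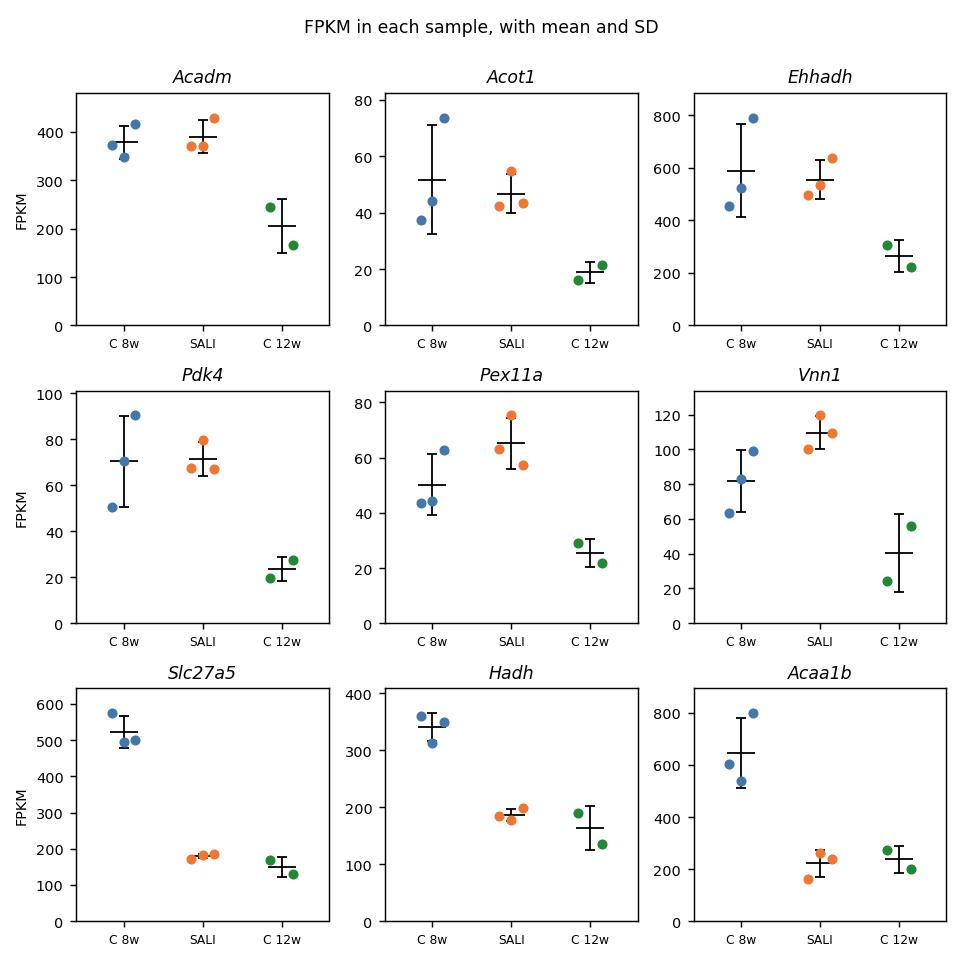
FPKM in each sample (points), with the mean and SD of each group (bars, n = 3, 3 and 2), of the 6 genes lower in C 12w than in both other groups (upper rows) and of Slc27a5, Hadh and Acaa1b, which were lower in both groups (bottom row). In the upper rows the C 12w points lie below all others, and in the bottom row the C 8w points lie above all others.

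Other genes of the pathway were counted from a wider list of 114, of which 107 were tested. Of these, 39 were lower and 12 higher in SALI than in C 8w, with a median log2 difference of -0.31, which is 36.4% and 11.2% against 13.5% and 25.6% of all genes. In C 12w, 26 were lower and 7 higher, with a median of -0.21, which is 24.3% and 6.54% against 6.90% and 13.1% of all genes. Between SALI and C 12w, 22 were higher and 20 lower, and these shares of 20.6% and 18.7% were near the 18.1% and 16.1% of all genes. Peroxisomal genes made up the largest group: of 24 tested, 13 were lower in SALI and 6 in C 12w against C 8w, and 0 were higher by limma in either, with unadjusted p-values under 0.05 for 0 higher genes in SALI and 1 in C 12w. Among 14 other mitochondrial genes, 6 were lower and 1 higher in SALI, and 7 were lower and 0 higher in C 12w (0 at an unadjusted p under 0.05). Of 9 other ketone body genes, 4 were lower and 0 higher in SALI (1 at an unadjusted p under 0.05), and 2 were lower and 2 higher in C 12w. The group of omega oxidation and other PPAR alpha targets, 19 genes, had 5 higher and 3 lower in SALI and 1 higher and 7 lower in C 12w against C 8w, and 10 higher and 2 lower in SALI against C 12w. In that last comparison the peroxisomal genes had 1 higher and 7 lower, the other mitochondrial genes 2 and 4, and the other ketone body genes 1 and 3.

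The largest changes in the wider list were taken among called genes whose groups did not overlap. Against C 8w, Hacl1, a peroxisomal lyase of branched chains, and Acsm1, which activates medium chains, fell most in SALI (-1.99 ± 0.15 and -1.97 ± 0.20, limma, adjusted p = 3.2e-05 and 0.00016), with 75.3 to 95.2 and 97.9 to 145 FPKM in C 8w against 16.8 to 23.6 and 23.0 to 35.4. Of the windows of the coding transcript of Hacl1, 55.6% are shared with another gene, and of those of Acsm1 0%. Fabp4, a fatty acid binding protein of adipocytes and macrophages, and Cyp4a12b, an omega hydroxylase, rose most. Fabp4 was at 4.51 to 7.70 FPKM in C 8w, 101 to 209 in SALI, and 15.8 and 15.6 in C 12w, a difference of 4.50 ± 0.27 between the first 2 groups (adjusted p = 5.6e-06) and of 3.14 ± 0.30 between SALI and C 12w (adjusted p = 0.00013). The adipocyte markers Adipoq, Plin1 and Lep together were at 0.140 to 0.298 FPKM in C 8w, 0.0836 to 1.27 in SALI, and 0.0186 to 0.0451 in C 12w, and the 6 macrophage markers were at 106 to 134, 66.4 to 262 and 64.6 to 106. Their part in the Fabp4 difference was not tested. Cyp4a12b was at 7.00 to 19.0 FPKM in C 8w and 73.3 to 81.2 in SALI (2.75 ± 0.31, adjusted p = 0.00028), and 49.5% of its windows are shared with other genes. In C 12w against C 8w, Cyp4a10 and Cyp4a14, omega hydroxylases and classical PPAR alpha targets, fell most. Cyp4a10 was at 578, 515 and 582 FPKM in C 8w, 501, 414 and 673 in SALI, and 102 and 79.1 in C 12w, so that C 12w was lower than C 8w by -2.62 ± 0.22 (adjusted p = 0.00056) and SALI higher than C 12w by 2.52 ± 0.22 (adjusted p = 8.4e-05), and 30.5% of its windows are shared. Cyp4a14 was at 792 to 974 FPKM in C 8w, 384 to 730 in SALI, and 204 and 123 in C 12w (-2.42 ± 0.30 against C 8w, adjusted p = 0.0021). Fgf21, a hormone of the fasted liver, and Oxct1, which uses ketone bodies and is low in healthy liver, rose most in C 12w. Fgf21 was at 15.6 to 18.2 FPKM in C 8w, 24.3 to 31.6 in SALI, and 42.3 and 228 in C 12w, with 2.48 ± 0.55 against C 8w (adjusted p = 0.018) and -1.77 ± 0.55 between SALI and C 12w (adjusted p = 0.038). These calls were kept in 5 and 2 of 8 fits, and the differences were 1.28 and -0.57 without C 12w replicate 3, and the second was -2.98 without replicate 2. Oxct1 was at 1.98 to 2.43 FPKM in C 8w and at 7.64 and 14.0 in C 12w (1.81 ± 0.25, adjusted p = 0.0032), and 12.05% of its windows are shared. Bdh2, a cytosolic dehydrogenase, was at 5.04 and 7.02 FPKM in C 12w and at 0.507 to 0.875 in SALI, the largest fall between these groups (-2.02 ± 0.16, adjusted p = 4.6e-05).

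Since many of these genes are known PPAR alpha targets, their promoters were searched for the repeat that PPAR alpha and RXR bind. RefSeq promoters (GRCm38.p6, 250 bases before to 50 after a start) were held for 32 of the 37 genes, 35 promoters in all, and Slc27a5, Crat, Acaa2, Decr1 and Vnn1 had none in the table. The repeat AGGTCANAGGTCA, on either strand, was in none of the 35 and in 0.0396% of all 32851 promoters. With the fourth base of each hexamer free (AGGNCANAGGNCA) it was in the promoter of Fabp1, 1 of the 35 (2.86%), and in 0.381% of all. The hexamer AGGTCA, which the repeat contains, was in 9 of the 35 member promoters, those of 8 genes, which is 25.7% against 16.3% of all promoters. Fabp1, the most abundant of the 37, is shown as the only member that matched the repeat with the free bases, over the 250 bases before its start (chr6:71199629-71199878, plus strand), and the others with the hexamer before the start are shown with up to 17 bases on each side. Each stretch is printed on the strand of its gene, and capitals mark the hexamer as AGGTCA or, where it lies on the opposite strand, as TGACCT. For Fabp1 they mark the match to the repeat with the free bases, and another hexamer nearer its start is left in lower case. The matches of Acot3 lie after its start.
Fabp1: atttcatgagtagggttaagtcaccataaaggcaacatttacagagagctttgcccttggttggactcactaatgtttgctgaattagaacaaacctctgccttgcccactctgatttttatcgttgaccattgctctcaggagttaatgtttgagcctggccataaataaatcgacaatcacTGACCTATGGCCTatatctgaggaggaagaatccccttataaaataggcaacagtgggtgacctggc
Acadm (chr3:153944870-153944893, minus strand): gTGACCTtcgggctccggtgacac
Cpt1a (chr19:3323190-3323229, plus strand): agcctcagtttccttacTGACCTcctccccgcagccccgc
Slc27a2 (chr2:126552787-126552826, plus strand): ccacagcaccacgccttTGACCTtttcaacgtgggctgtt
Cd36 (chr5:17836102-17836141, minus strand): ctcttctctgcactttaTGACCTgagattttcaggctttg
Acadvl (chr11:70015493-70015532, minus strand): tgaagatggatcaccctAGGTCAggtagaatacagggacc
Acot4 (chr12:84038349-84038378, plus strand): ggctcagccccgaagcaTGACCTttggccg
In the comparisons, Acadm was lower in C 12w than in both other groups, Acadvl was lower in both groups than in C 8w, Slc27a2 and Acot4 were lower in SALI, Cpt1a differed between SALI and C 12w, and Fabp1 and Cd36 passed in no comparison in the fit of all samples. Of the 6 genes lower in C 12w and higher in SALI than in C 12w, 5 had a promoter in the table, and of these Acadm held the hexamer in this window. A match is a description of the letters and not a site, and other parts of these genes were not searched.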

How the data were processed

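FPKM values of 8 samples were used as deposited. The authors computed FPKM per gene and sample, and the submitters' notes name Bowtie 0.12.2 and mm8, without a role; the quantifier and annotation are not given in the sources used here. FPKM holds no counts, so depth and counting error are unknown. Summed FPKM was 324735 to 399342 per sample. Low values of samples of the same group, compared in 5 pairs, stood most often in a ratio of 0.97 to 1.04, which held for 4.09% to 7.97% of low genes. The labels call the samples separate mice by code only, so p-values measure the spread between these samples. The table held 0 columns of other samples, and 22314 of its 22504 Ensembl identifiers were paired with a symbol.

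The 11007 genes that reached FPKM 1 in 2 or more of 8 samples were compared as log2(FPKM + 1). All 8 samples entered 1 linear model (limma 3.58.1 in R 4.3.3, eBayes with a trend, two-sided), p-values were adjusted by Benjamini-Hochberg over all 11007 genes, and the threshold was 0.05. FPKM is given as mean ± SD or per sample, and log2 differences with standard errors. Shared sequence is how many percent of 50-base windows occur in another GENCODE M21 gene, over all transcripts of a gene for the limits of 2% and 10% and over its longest coding transcript for single genes (Python 3.11.15). Members, the wider list and the markers were chosen with earlier results of these data known. Every member is named, and per-sample values are given for members called between C 12w and C 8w and the 10 largest called changes in each other comparison. Of the wider list, the 2 largest rises and falls without overlap are named in each comparison. Alternatives were another pseudocount, filters, scalings, eBayes without a trend, fits of 2 groups, of genes with at most 2% shared sequence, without each sample, and with a replicate block. The test was checked on 10 simulated sets of C 12w against C 8w with 11007 genes, of which 200 were changed by 1.5 (log2): 87.9% of these were called, and 5.63% of the calls were false (at most 8.07% in a set). These sets gave all groups the same spread. In the data more genes were called, and many members differed by less than 1.5. The simulated rates therefore do not describe the calls reported here. Motifs were matched as letters on both strands. In 28 of the 35 member promoters, bases after the start occurred near the beginning of a GENCODE transcript of the gene. This checks the strand and not the exact position of the start. Tf was not analysed here.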

Additional observations from a re-analysis of the deposited data

How the results depend on the processing

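In the limma fit of all 8 samples, 1 of the 37 genes was higher and 15 lower in SALI than in C 8w, while 1 rose and 17 fell in C 12w relative to C 8w, and 9 were higher and 5 lower in SALI than in C 12w. Leaving out each sample in turn gave 1 to 2 and 9 to 20, 0 to 2 and 7 to 22, and 7 to 14 and 3 to 7. In the fits without 1 of the C 12w samples, the other is assumed to vary like the other groups. Cd36 turned sign with the C 12w sample left out: against C 8w it was 1.05 without C 12w replicate 2 and -1.19 without replicate 3, and between SALI and C 12w -1.01 and 1.22. The cause of these shifts was not tested. With the 2 groups compared fitted alone, 2 were higher in SALI than in C 8w and 3 lower than in C 12w. Of the genes higher in C 12w relative to C 8w, 0 were called without a filter and 0 with median-ratio scaling (2 and 1 at an unadjusted p under 0.05, limma), and 2 with samples scaled to the same summed FPKM. Among genes with at most 2% shared windows, where 18 of the 37 are left, 0 were higher and 5 lower in SALI than in C 8w, while 0 rose and 9 fell in C 12w relative to C 8w, and 4 were higher and 1 lower in SALI than in C 12w, as many as of these 18 in the fit of all genes. At an unadjusted p under 0.05, 0 were higher in SALI and 1 in C 12w. The other 72 counts stayed within 1.5 times the value in the fit of all samples. Of 1830 repeated single-gene values, 1570 kept their direction and side of the threshold, 155 of the 793 that had passed no longer did, 55 newly passed in the same direction, and 50 turned sign. None of the 50 had passed in the fit of all samples, and 2, those of Cd36, passed after the turn.

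The labels give C 8w and C 12w the same replicate numbers 2 and 3, but deviations of same-numbered samples did not go together (correlation -0.18 over 11007 genes). With the replicate block, 0 of the 37 were higher and 4 lower in C 12w relative to C 8w, against 0 and 1 in the same 4 samples with no block. With crossed numbers, 0 were higher and 0 lower, with 1 and 20 at an unadjusted p under 0.05. In the 2 other fits, 1 was higher at that level. Over all 10410 genes tested there, the block called 289 higher and 146 lower, the 4 samples without it 107 and 49, and the crossed numbers 3 and 3. The crossed numbers and the fit of 4 samples without a block were chosen after seeing the data.

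Of the values that turned sign, leaving out each sample gave these ranges. In SALI against C 8w they were -0.14 to 0.14 for Cd36, -0.027 to 0.11 for Acadm, -0.067 to 0.020 for Hadha, -0.22 to 0.18 for Ehhadh, -0.29 to 0.19 for Acot1 and -0.16 to 0.25 for Pdk4. In C 12w against C 8w they were -0.49 to 0.080 for Ppara, -0.48 to 0.093 for Ppargc1a and -1.31 to 0.80 for Fabp1. In SALI against C 12w they were -0.51 to 0.066 for Ppargc1a, -2.02 to 0.095 for Fabp1, -0.34 to 0.086 for Slc27a2, -0.058 to 0.066 for Slc25a20, -0.13 to 0.21 for Acadvl, -0.29 to 0.053 for Acads, -0.030 to 0.45 for Hadh, -0.35 to 0.15 for Acaa2, -0.12 to 0.22 for Decr1, -0.19 to 0.80 for Decr2, -0.030 to 0.54 for Etfb, -0.21 to 0.36 for Etfdh and -0.33 to 0.11 for Acaa1b. With median-ratio scaling, in SALI against C 8w Cd36 turned to -0.12, Acadm to -0.11, Etfa to -0.0042 and Pdk4 to -0.10. With samples scaled to the same summed FPKM, in SALI against C 8w Cd36 turned to -0.052, Acadm to -0.047 and Pdk4 to -0.035, in C 12w against C 8w Cd36 turned to 0.029, and in SALI against C 12w Cd36 turned to -0.081, Slc25a20 to -0.17, Acadvl to -0.14, Hadha to -0.0067, Decr1 to -0.13 and Etfdh to -0.11.

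Over all genes, 2814 were higher and 1491 lower in SALI than in C 8w, 1439 and 760 in C 12w relative to C 8w, and 1991 and 1773 in SALI than in C 12w. Leaving out each sample gave 1713 to 3529 and 958 to 1956, 547 to 2646 and 314 to 1160, and 1585 to 2050 and 1271 to 2439. With the 2 groups compared fitted alone, 1297 and 1071 were called in the last comparison, with median-ratio scaling 1162 were lower in C 12w relative to C 8w, and with samples scaled to the same summed FPKM 1300 were higher in SALI than in C 12w. Of the 6757 genes with at most 2% shared windows, 1432 and 886, 946 and 449, and 913 and 1065 were called in the 3 comparisons. Depth is unknown, so no limit of detection can be given for low genes such as Ppargc1a and Acot3.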
